A study of Mus musculus with 8 samples.

Results

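Trimethylation of lysine 4 and acetylation of lysine 27 of histone H3 (H3K4me3 and H3K27ac) were compared at the promoters of all autosomal genes of the newborn mouse epidermis. A gene was given a mark when a peak of that mark reached, by at least 1 bp, the 1000 bp before or the 100 bp after one of its annotated transcription start sites (TSSs), and this sorted the genes into those with both marks, H3K4me3 only, H3K27ac only and neither. The comparison covered 24963 autosomal genes of 26180 genes with a curated RefSeq transcript. It used the 26246 H3K4me3 peaks and 30148 H3K27ac peaks that lay on autosomes, of 27039 and 30736 in all. The rule looks only at the presence of a peak, so the height and width of the peaks, the promoter sequence and the kind of gene were free to differ between the classes.

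The series examined where the acetyltransferase MOF and the transcription factor Rfx2 bind in relation to histone marks. Its 8 libraries, with 6 antibodies, all came from total epidermis of wildtype mice at postnatal day 0.5, split with dispase from the dermis of the back skin and made into single cells. Total epidermis holds keratinocytes of all layers and the cells that live among them, and no cell type was sorted. The labels list 2 Cut&Run libraries for H3K4me3 and 2 for H3K27ac, and 1 peak list for each of them was analysed here. Both lists are attached to the repeat libraries, but the names of the H3K4me3 peaks carry no sign of a repeat, so the H3K4me3 library behind them is not certain. With 1 list per mark there was no replicate error and no test between classes was possible. The intervals given are 95% intervals (Clopper-Pearson for shares, binomial order statistics for medians) that cover counting error over genes only. Fold enrichment is the pileup at the summit over the local background, as the authors' peak caller gave it, and heights were never compared between the lists. The study states a read depth for each library. Those of the 2 H3K4me3 libraries differ, so the depth behind the H3K4me3 list is as uncertain as its library.

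H3K4me3 sits at the start of active genes, where complexes of the KMT2 and SETD1 families write it and CpG-rich DNA draws part of that machinery. H3K27ac is written by EP300 and CREBBP at active promoters and at enhancers. The same lysine 27 can instead be trimethylated by the Polycomb enzymes EZH1 and EZH2, and a residue that is methylated cannot be acetylated.

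To show how the promoters differed in sequence, the 200 bases before the annotated start are given for 8 genes, at least 1 from each class, in lower case with each CG and each TATAAA lying 40 to 21 bases before the start in capitals. They were chosen after the values were seen and read from the RefSeq promoter table of GRCm38.p6, which held 18602 of the genes (74.5%). The first has both marks (Psma1, a proteasome subunit, chr7:114276117-114276316, minus strand). The next 3 have H3K4me3 only: Atoh1, the factor that specifies Merkel cells (chr6:64728925-64729124, plus strand), Zfp931, a zinc finger gene with a tall H3K4me3 peak (chr2:178078426-178078625, minus strand), and Krt5, the basal keratin (chr15:101712906-101713105, minus strand). Sprr1a, a cornified envelope precursor (chr3:92485882-92486081, minus strand), and Arhgap40, a GTPase-activating protein (chr2:158512596-158512795, plus strand), have H3K27ac only. Lor (chr3:92083143-92083342, minus strand), the main protein of the cornified envelope, and Krt10 (chr11:99389365-99389564, minus strand), the keratin of the spinous layer, have neither mark within the promoter window.
Psma1: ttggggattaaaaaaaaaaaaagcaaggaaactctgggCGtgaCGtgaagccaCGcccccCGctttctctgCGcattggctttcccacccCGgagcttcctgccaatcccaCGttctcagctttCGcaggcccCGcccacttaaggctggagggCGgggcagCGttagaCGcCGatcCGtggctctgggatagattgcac
Atoh1: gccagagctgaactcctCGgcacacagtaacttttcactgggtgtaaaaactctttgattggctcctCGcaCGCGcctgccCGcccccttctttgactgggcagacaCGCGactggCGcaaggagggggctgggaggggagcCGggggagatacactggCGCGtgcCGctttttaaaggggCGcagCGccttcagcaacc
Zfp931: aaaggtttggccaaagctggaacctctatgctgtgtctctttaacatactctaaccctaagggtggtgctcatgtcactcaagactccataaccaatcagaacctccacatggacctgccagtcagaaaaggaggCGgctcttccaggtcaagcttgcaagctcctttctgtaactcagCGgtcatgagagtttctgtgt
Krt5: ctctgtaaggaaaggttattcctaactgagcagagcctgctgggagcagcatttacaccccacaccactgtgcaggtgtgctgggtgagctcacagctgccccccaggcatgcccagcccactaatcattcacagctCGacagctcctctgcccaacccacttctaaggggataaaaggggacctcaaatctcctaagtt
Sprr1a: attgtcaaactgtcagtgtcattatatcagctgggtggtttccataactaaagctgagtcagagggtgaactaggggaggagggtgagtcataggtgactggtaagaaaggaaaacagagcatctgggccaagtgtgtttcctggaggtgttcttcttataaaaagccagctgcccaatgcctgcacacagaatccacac
Arhgap40: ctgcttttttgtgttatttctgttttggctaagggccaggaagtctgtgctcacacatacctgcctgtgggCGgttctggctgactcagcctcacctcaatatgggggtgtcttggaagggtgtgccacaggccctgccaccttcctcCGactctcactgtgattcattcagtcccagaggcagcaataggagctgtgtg
Lor: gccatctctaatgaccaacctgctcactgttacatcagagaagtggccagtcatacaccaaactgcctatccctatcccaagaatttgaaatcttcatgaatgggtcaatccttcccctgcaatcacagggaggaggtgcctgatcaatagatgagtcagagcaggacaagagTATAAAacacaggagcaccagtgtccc
Krt10: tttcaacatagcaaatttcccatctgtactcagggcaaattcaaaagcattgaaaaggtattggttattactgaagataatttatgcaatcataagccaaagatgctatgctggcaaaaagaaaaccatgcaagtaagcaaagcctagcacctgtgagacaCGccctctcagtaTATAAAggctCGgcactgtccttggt
The Psma1 and Atoh1 sequences each hold 14 CG dinucleotides. Zfp931, Arhgap40 and Krt10 hold 2, Krt5 holds 1, and Sprr1a and Lor hold 0. TATAAA begins at position -27 from the start of Lor and at -26 from that of Krt10. The letters of a TATAAA also lie in the Sprr1a sequence, further upstream than the bases searched.

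By the overlap rule, 78.7% of the 13932 genes with a mark carried both. Both marks were found at 10968 genes (43.9%, interval 43.3 to 44.6), H3K4me3 only at 2698 (10.8%, 10.4 to 11.2), H3K27ac only at 266 (1.07%, 0.942 to 1.2) and neither at 11031 (44.2%, 43.6 to 44.8). H3K4me3 was therefore present at 54.7% and H3K27ac at 45% of autosomal genes. Of the genes with H3K4me3, 80.3% (79.6 to 80.9) also had H3K27ac, and of the genes with H3K27ac, 97.6% (97.3 to 97.9) also had H3K4me3. Among the 20021 genes with a protein-coding (NM) transcript, 61.6% had H3K4me3, 51% had H3K27ac, 50.1% had both, 11.5% had H3K4me3 only, 0.939% had H3K27ac only and 37.5% had neither. H3K27ac accompanied H3K4me3 at 81.4% (80.7 to 82.1) of protein-coding genes and at 69.9% (67.4 to 72.4) of noncoding genes with H3K4me3. By chromosome, the share of H3K4me3 genes without H3K27ac ran from 15.4% on chromosome 16 to 24.4% on chromosome 18. These shares rest on counting any overlap. When a peak had to have its centre in the window, 4242 of 8959 marked genes (47.3%) carried both marks, the H3K27ac-only share was 9.79%, the share of H3K4me3 genes with H3K27ac was 65.1%, and the share of H3K27ac genes with H3K4me3 was 63.4%. The window ends 100 bp after the TSS, and the peaks of both marks extended further into the gene (given with the positions).

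The median CpG content differed between the classes, but their ranges overlapped. The CpG observed over expected ratio of the promoter window, which compares the number of CG dinucleotides with that implied by the base composition, had a median of 0.618 (0.613 to 0.623) with both marks, 0.5 (0.488 to 0.512) with H3K4me3 only, 0.228 (0.211 to 0.26) with H3K27ac only and 0.193 (0.19 to 0.196) with neither. The quartiles were 0.481 and 0.747 with both marks and 0.347 and 0.646 with H3K4me3 only. They were 0.165 and 0.376 with H3K27ac only and 0.124 and 0.291 with neither. A ratio above 0.6 was found at 53.8% of genes with both marks, 32.3% with H3K4me3 only, 14.7% with H3K27ac only and 3.21% with neither, against 28.7% of all autosomal genes. The order was not that of GC content, whose medians were 52.5% with both marks, 52.9% with H3K4me3 only, 50.5% with H3K27ac only and 45.3% with neither. Among genes with H3K4me3, H3K27ac was present at 64.1% where the ratio was at most 0.4, 78.8% between 0.4 and 0.6, 86.3% between 0.6 and 0.8 and 89.1% above 0.8. TATAAA 40 to 21 bases before the start, on the strand of the gene, was found at 0.821% of promoters with both marks, 2.08% with H3K4me3 only, 3.01% with H3K27ac only and 4.24% with neither, against 2.49% of all promoters. A match says only that these letters lie in that stretch.

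**Figure D1:**
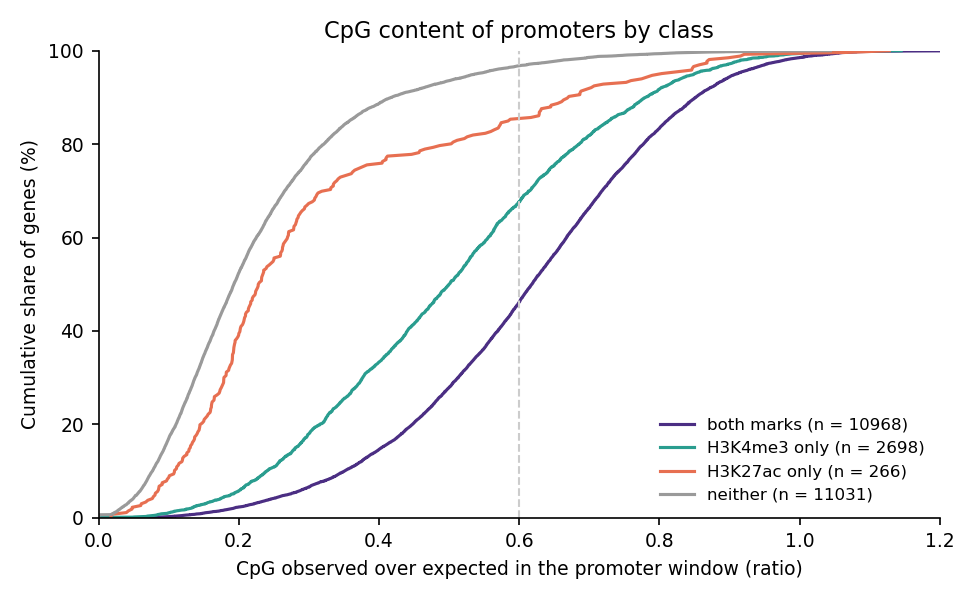
Cumulative share of genes (y axis, percent) up to each CpG observed over expected ratio of the promoter window (x axis), with 1 line per class and a dashed line at a ratio of 0.6. The lines of H3K27ac only and neither lie to the left, with medians of 0.228 and 0.193, H3K4me3 only is intermediate (0.5) and both marks lies to the right (0.618).

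H3K4me3 peaks were wider where H3K27ac was also present. Their median width was 1406 bp (1394 to 1418) with both marks and 782 bp (761 to 810) with H3K4me3 only, a ratio of 1.8 (1.72 to 1.86). A peak wider than 2000 bp stood at 14.5% of genes with both marks and 4.26% of those with H3K4me3 only. When genes with H3K4me3 were split into 10 equal groups by peak width, H3K27ac was present at 35.2% (32.7 to 37.8) of the narrowest, 57.3% of the second group, 75.2% of the third and 91.8% to 94.5% of the sixth to the tenth, whose peaks were at least 1309 bp wide.

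The result for peak strength depended on the measure. The median H3K4me3 fold enrichment was 8.16 (8.09 to 8.22) with both marks and 7.32 (7.2 to 7.52) with H3K4me3 only, a ratio of 1.11. This order did not hold in all settings: the ratio was 1 with the 20000 most significant peaks of each list and 0.899 with the stronger 50% of each list. By −log10 q-value, the caller's significance, the medians were 52.4 and 18.8, a ratio of 2.79 (2.65 to 2.94). In groups by fold enrichment, the share with H3K27ac was 68.5% in the lowest and 85% in the highest. In groups by −log10 q-value it was 25.7% in the lowest and between 96.6% and 97.7% in the seventh to the tenth, a wider span than by width. Width and height were inversely ranked among genes with both marks (Spearman's rank correlation -0.39 over 10968 genes) and directly ranked with H3K4me3 only (0.28 over 2698 genes). These are descriptions over genes of 1 library, and neighbouring genes can share a peak.

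The genes were also split by width and CpG content at once. Where the H3K4me3 peak was at most 500 bp wide, H3K27ac was present at 28% (23.4 to 33) of genes with a CpG ratio up to 0.4, 22.5% (17.8 to 27.8) of those between 0.4 and 0.6 and 42% (37.3 to 46.8) of those above 0.6, so the share did not increase steadily with CpG content at the narrowest peaks. Where it was wider than 1500 bp, it was present at 80.6% (76.9 to 84), 91.2% (89.5 to 92.8) and 96.3% (95.6 to 97). In each range of CpG content the share was higher at peaks over 1500 bp than at peaks up to 500 bp.

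**Figure D2:**
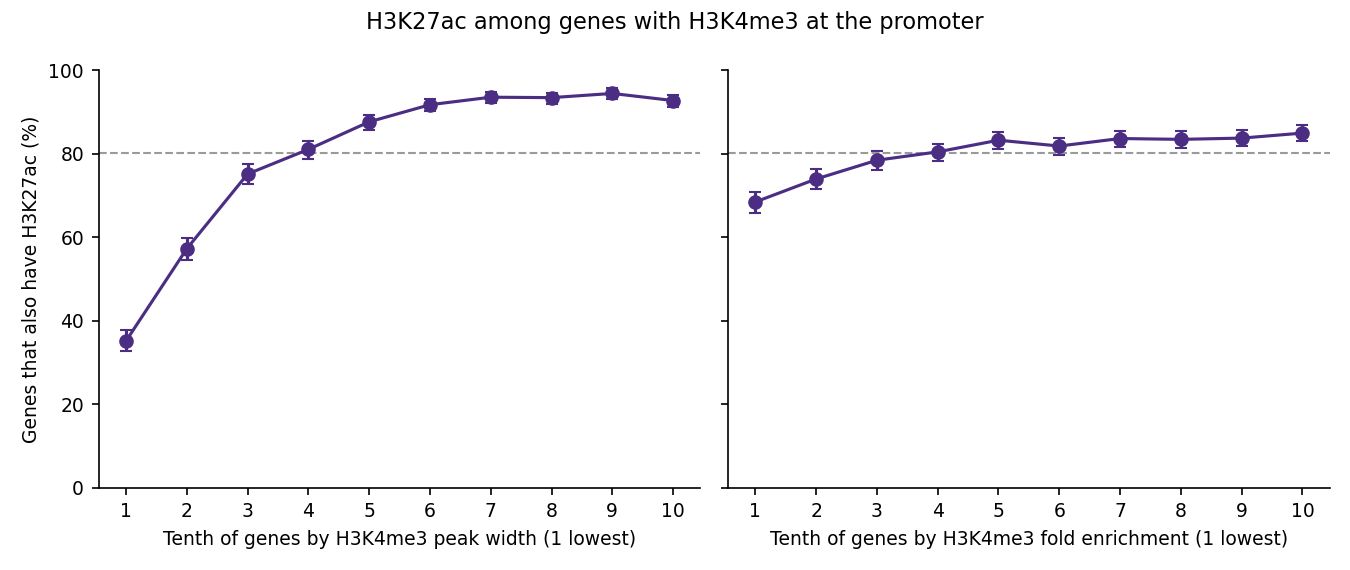
Share of genes with H3K4me3 at the promoter that also have H3K27ac (y axis, percent, with 95% Clopper-Pearson intervals), for 10 equal groups of genes by H3K4me3 peak width (left) and by H3K4me3 fold enrichment (right), lowest first. The dashed line is the share over all of them, 80.3%, and the points run from 35.2% to 94.5% by width and from 68.5% to 85% by fold enrichment. Groups by −log10 q-value, not drawn, span 25.7% to 97.7%.

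H3K27ac peaks were both taller and wider where H3K4me3 was present. Their median fold enrichment was 6.78 (6.73 to 6.84) with both marks and 4.46 (4.25 to 4.63) with H3K27ac only, a ratio of 1.52, and their median width was 912 bp (901 to 922) and 508 bp (449 to 544). H3K4me3 was present at 90.5% of the genes in the lowest of 10 groups by H3K27ac fold enrichment and at 99.9% in the highest. Where both marks were present, the 2 fold enrichments were ranked alike with a Spearman's rank correlation of 0.44 and the 2 widths with 0.37, over 10968 genes.

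The marks were nested at most promoters that had both. The 2 peaks overlapped each other at 96.9% of these genes, the H3K27ac peak lay wholly inside the H3K4me3 peak at 67.4% and the reverse held at 2.26%. Relative to the TSS, with downstream positive, the H3K4me3 peak ran from a median of -522 bp to 837 bp and the H3K27ac peak from -376 bp to 488 bp. Both summits lay downstream of the TSS at more genes than upstream (62.2% for H3K4me3 and 58% for H3K27ac), and their median distance from each other was 178 bp (172 to 185). With H3K4me3 only, the peak ran from a median of -275 bp to 464 bp and covered the TSS at 74.5% of genes, against 92.2% with both marks. With H3K27ac only, the peak covered the TSS at 58.3% of genes (52.1 to 64.3), against 86.4% with both marks.

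**Figure D3:**
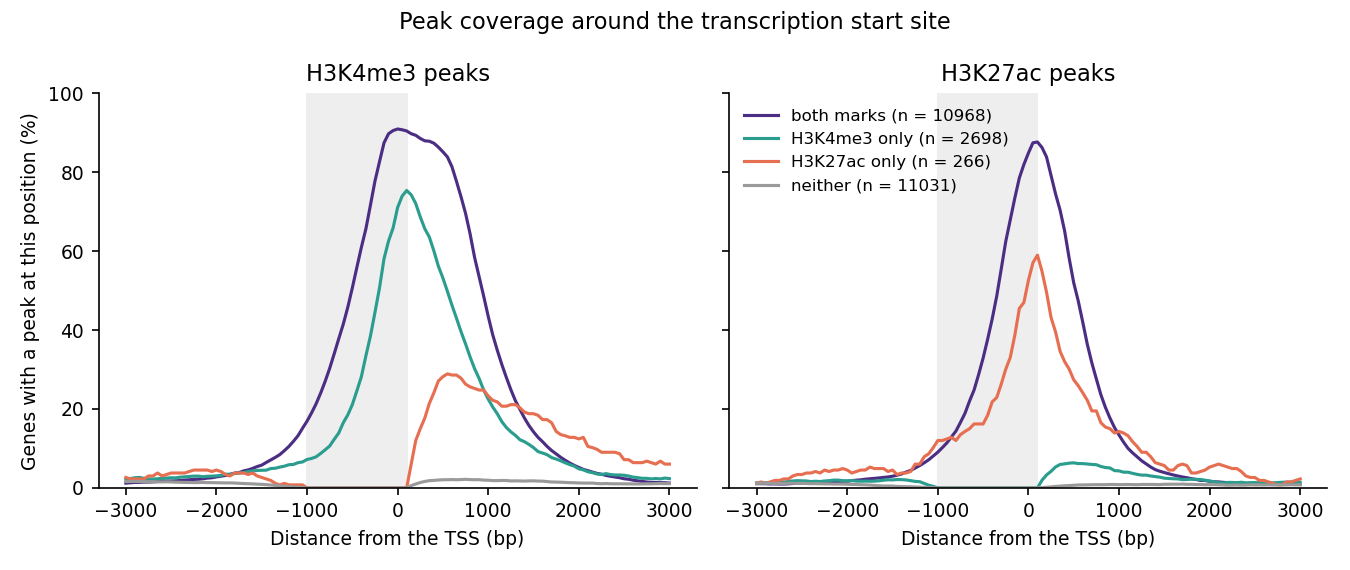
Share of genes covered by a peak (y axis, percent) at each distance from the TSS (x axis, bp, in steps of 50 bp, downstream positive) for H3K4me3 (left) and H3K27ac (right), with 1 line per class and the promoter window shaded. The lines of the absent mark are at 0 inside the window by construction and appear just after its downstream edge, where H3K4me3 covers 28.2% of the H3K27ac-only genes at 500 bp and H3K27ac covers 6.34% of the H3K4me3-only genes.

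The window edge decided the class of a minority of genes. An H3K27ac peak lay within 100 bp of the window at 111 of the 2698 H3K4me3-only genes (4.11%) and within 1000 bp at 416 (15.4%). The median distance from the window of an H3K4me3-only gene to the nearest H3K27ac peak was 24228 bp (22314 to 27038). At 316 of the 416 the nearest H3K27ac peak was on the downstream side. On the inner side of the edge, 452 of the 10968 genes with both marks (4.12%) held their H3K27ac by an overlap of 100 bp or less. The H3K27ac-only class stood closer to the edge: an H3K4me3 peak lay within 100 bp of the window at 37 of its 266 genes (13.9%, 9.99 to 18.7) and within 1000 bp at 105 (39.5%, 33.6 to 45.6), and it was downstream at 90 of the 105. Genes with neither mark had an H3K4me3 peak within 1000 bp at 5.71% and an H3K27ac peak at 2.88%.

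Each single-mark class was therefore divided by whether its promoter peak touched a peak of the other mark. The H3K4me3 peak touched an H3K27ac peak outside the window at 327 H3K4me3-only genes (12.1%), and stood apart from H3K27ac at 2371. Because H3K27ac is absent from the window in this class, a peak can touch it only by reaching past the window, so this division favours wide peaks by construction and the widths are given as a description. The touching peaks had a median width of 1470 bp (1388 to 1580), and the peaks apart 714 bp (694 to 741), while the fold enrichments of 7.25 and 7.33 had overlapping intervals. The H3K27ac peak touched an H3K4me3 peak at 68 H3K27ac-only genes (25.6%) and stood apart at 198. This division favours wide peaks in the same way. The touching peaks had a median width of 938 bp and a median fold enrichment of 5.2 (4.82 to 5.82), the peaks apart 406 bp and 4.25 (4.14 to 4.44). CpG content differed as well, with a median ratio of 0.53 (0.299 to 0.629) at the 68 genes and 0.207 (0.193 to 0.224) at the 198.

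**Figure D4:**
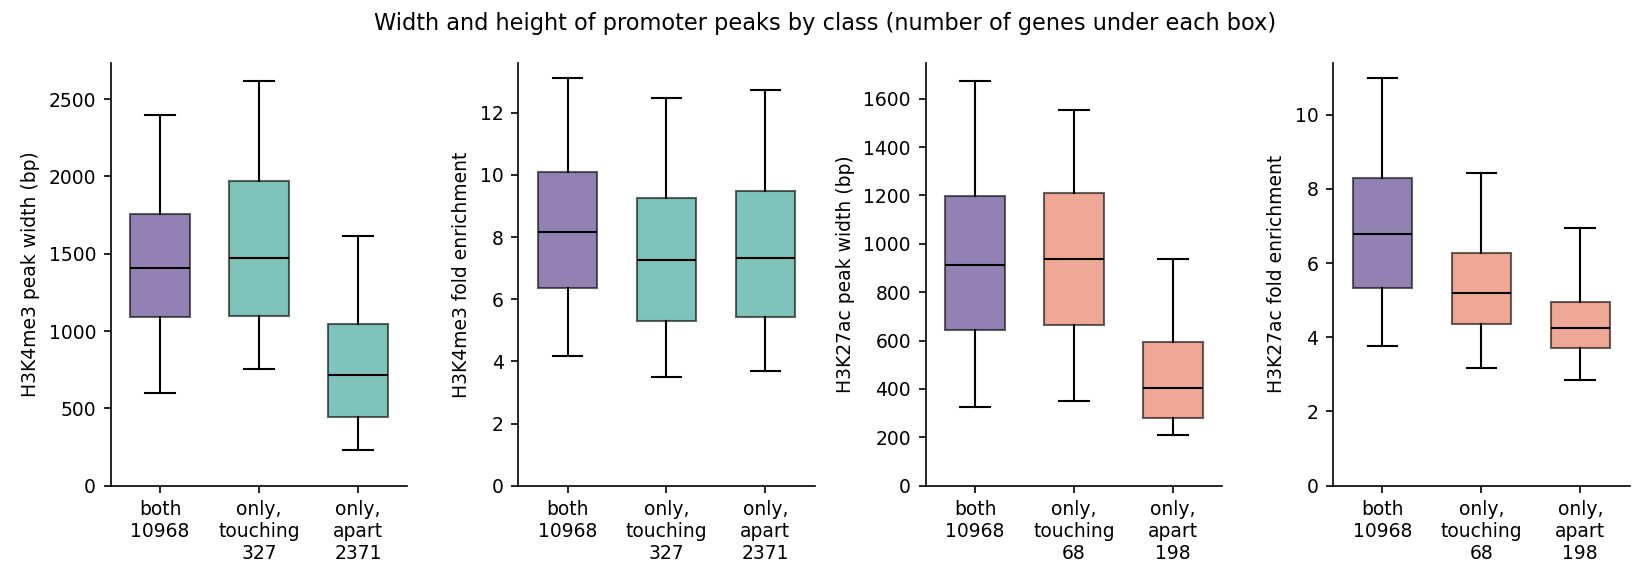
Width (bp) and fold enrichment of promoter peaks for H3K4me3 (left pair) and H3K27ac (right pair) at genes with both marks, at single-mark genes whose peak touches the other mark outside the window, and at those whose peak stands apart. Boxes give the quartiles and median over genes, whiskers the 5th and 95th percentiles, and the median widths of the peaks apart are 714 bp and 406 bp. A peak can touch the other mark only by reaching past the window, so the division by touching favours wide peaks by construction.

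Among protein-coding genes with a gene name (clone and model names left out), the 10 tallest H3K4me3-only peaks were as follows. Zfp931, a zinc finger protein, reached 17.8-fold over 1135 bp with the nearest H3K27ac peak 756911 bp away. Daw1, a factor for the assembly of axonemal dyneins, reached 17.7-fold over 514 bp, and Oasl1, an interferon-induced gene, 17.5-fold over 364 bp. The peak of Oasl1 has its summit at -731 bp, does not reach the Oasl1 TSS and is shared with the neighbour Gm13822. Bbs1, a subunit of the ciliary BBSome, reached 17-fold over 587 bp. Actr3b, a form of the actin-nucleating protein Arp3, and Cyp4f16, a cytochrome P450, were both at 16.9-fold, with 701 bp and 515 bp. Nme5, a protein of sperm and motile cilia, was at 16.5-fold. Lhpp, a phosphatase, and Zfp33b were both at 15.9-fold, and Mak, a kinase of the photoreceptor cilium and of sperm, was at 15.8-fold over 475 bp. The nearest H3K27ac peak was 18821 bp away or more at these 10 genes, and the median over the class was 24228 bp. Of these 10 peaks 0 touched H3K27ac, and in the class as a whole 12.1% did, so few that nothing particular to the tallest peaks is read from it.

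Of the 5 widest H3K4me3-only peaks at such genes, 4 touched H3K27ac, a division that favours wide peaks by construction. The widest was at Trp63, the master regulator of the epidermal lineage, where the peak was 3941 bp wide and only 3.29-fold enriched, and H3K27ac began 987 bp beyond the window on the downstream side. Rnd3, a small GTPase-like protein (3248 bp, 4.25-fold), Vcan, the proteoglycan versican (3243 bp, 4.21-fold), and Anp32a, a nuclear phosphoprotein (3027 bp, 3.61-fold), likewise touched an H3K27ac peak that lay 762 bp, 1261 bp and 989 bp downstream of the window. Edn1, the precursor of endothelin-1 (3191 bp, 4.41-fold), was the exception, with the nearest H3K27ac 5198 bp away.

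Of the 10 tallest H3K27ac-only peaks at named protein-coding genes, some touched H3K4me3 and some stood apart. Ctsh, the protease cathepsin H, had an H3K27ac peak of 9.63-fold and 695 bp, and an H3K4me3 peak began 5 bp past the window. Cpa6, a carboxypeptidase (9.06-fold), Zfp280d (8.44-fold), Kdm3b, a demethylase of lysine 9 of histone H3 (7.87-fold), Fam50b (7.82-fold) and Ppp2cb, a catalytic subunit of protein phosphatase 2A (7.49-fold), also touched H3K4me3, which lay 95 bp to 286 bp from the window. At the others H3K4me3 was distant. It was 42918 bp from the window of Arhgap40 (8.63-fold), 6152 bp from that of Cyp2t4 (8.5-fold), 83731 bp from that of Tarm1, a receptor of myeloid cells (7.43-fold), and 34233 bp from that of Ripor3 (7.3-fold). The 5 widest H3K27ac-only peaks, at Tle5, a corepressor (1949 bp), Lrp6, a Wnt co-receptor (1553 bp), Zdhhc18, a palmitoyltransferase (1536 bp), Mab21l4 (1483 bp) and Peli2, a ubiquitin ligase (1444 bp), all touched H3K4me3, which lay 90 bp to 332 bp from the window, and this division too favours wide peaks by construction. Lrp6 had the highest CpG ratio of these genes (1.13).

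Genes that ranked high for both marks had H3K4me3 peaks of 755 bp to 1100 bp, narrower than the class median. N6amt1, a methyltransferase, had 18.9-fold H3K4me3 and 15.6-fold H3K27ac, Tmem14a had 17.5-fold and 17.2-fold, and Pemt, an enzyme of phosphatidylcholine synthesis, had 17.3-fold and 15.7-fold. Iftap, Vps41, a subunit of the HOPS tethering complex, Zfp963, Mtg1, a GTPase of mitochondrial ribosome assembly, Trmt10b, a tRNA methyltransferase, Fis1, a protein of mitochondrial fission, and Ctso, the protease cathepsin O, completed the first 10 by the sum of the 2 ranks. Their H3K4me3 fold enrichment ran from 15.1 at Fis1 to 20.6 at Trmt10b and their H3K27ac fold enrichment from 13 at Trmt10b and Ctso to 18 at Fis1. The 5 widest H3K4me3 peaks with both marks were low: Esrp1, an epithelial splicing regulator, had 4157 bp at 2.94-fold, and Pkp1, the desmosomal protein plakophilin 1, had 4116 bp at 2.72-fold. Chd2, a chromatin remodeler, had 3962 bp, Zmiz1, a coregulator of transcription, 3947 bp, and Marcks, an actin-binding substrate of protein kinase C, 3847 bp, at 3.2-fold to 3.32-fold.

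Marker genes were set beside the tissue label. They are few, and among all protein-coding genes 50.1% had both marks, 11.5% had H3K4me3 only and 37.5% had neither. Of 6 basal keratinocyte markers, 2 had both marks (Krt14 and Itgb4), 3 had H3K4me3 only (Krt5, Trp63 and Col17a1), 1 had H3K27ac only (Itga6) and 0 had neither. The H3K27ac peak of Krt14 only just entered the window, with its summit at -1305 bp from the TSS. Of the 5 spinous and granular markers found, Dsg1a had H3K4me3 only and Krt1, Krt10, Ivl and Lor had neither. The 6 leukocyte and 5 T cell markers all had neither mark. Of 8 dermal fibroblast markers, Dcn had both, Col1a2 and Pdgfra had H3K4me3 only and 5 had neither. Of 6 endothelial markers, Kdr had H3K4me3 only and 5 had neither. Of 7 melanocyte markers, Mitf and Pmel had both, Mlana had H3K4me3 only and 4 had neither. The peaks of Pmel are shared with its neighbour Cdk2, and their summits lay at -1351 bp and -1304 bp from the Pmel TSS. Of 4 Merkel cell markers, Atoh1, Sox2 and Insm1 had H3K4me3 only and Krt20 had neither.

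Gene lists were described beside the protein-coding background, in which 50.1% of genes had both marks and 81.4% of those with H3K4me3 had H3K27ac. The 19 basal keratinocyte genes all carried a mark: 15 had both, 2 had H3K4me3 only and 2 had H3K27ac only. Among those with both, Lamb3, a chain of laminin 332, had 7.72-fold H3K4me3, Itgb1, the integrin beta 1 chain, had 8.19-fold H3K27ac over 1143 bp, and Frem2, a basement membrane protein, 8.21-fold over 1488 bp. The single-mark genes lay close to the other mark. For Krt5, whose H3K4me3 peak was 2710 bp wide at 3.51-fold, H3K27ac began 965 bp upstream of the window, and for Col17a1, the hemidesmosomal collagen, 1631 bp downstream. The H3K4me3 peak of Itga6, the integrin alpha 6 chain, missed the window by 84 bp. With windows of 2.5 kb to either side, a setting added for the lists after the data were seen, all 19 had both marks, and with the 20000 most significant peaks of each list 12 had.

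Of 25 epidermal transcription factors, 19 had both marks, 5 had H3K4me3 only (Trp63, Prdm1, Tfap2b, Grhl3 and Zfp750), Cebpb had H3K27ac only and 0 had neither. The H3K27ac peak of Grhl3, a factor of barrier formation, lay 17 bp outside the window, and that of Tfap2b 133 bp. That of Zfp750, a regulator of terminal differentiation, lay 2752 bp away and that of Prdm1, the repressor Blimp-1, 30221 bp. Of those with both, Hopx had the highest H3K4me3 fold enrichment of the list (9.62) and Grhl1 the highest H3K27ac (6.64). With the windows of 2.5 kb, 23 of the 25 had both marks, and with the 20000 most significant peaks 15 had. Hair follicle genes had both marks at 16 of 25 and H3K4me3 only at 8, with Hoxc13 having neither, although H3K27ac lay 12 bp and H3K4me3 213 bp from its window. With windows of 1 kb to either side, 19 of these genes had both and 0 had neither. Of the 8, the 4 with the tallest peaks were Wif1, a Wnt inhibitor (7.49-fold), Msx1 (6.36-fold), Dkk4, another Wnt inhibitor (5-fold), and Msx2 (4.25-fold). H3K27ac lay 238 bp from the window of Msx2, where the H3K4me3 peak reached it, and 53291 bp, 213406 bp and 26044 bp from those of Wif1, Msx1 and Dkk4. AP-1 genes had both marks at 9 of 14, H3K4me3 only at Fos and Batf3, H3K27ac only at Jund, and neither at Batf and Batf2. The nearest H3K4me3 lay 509 bp from the window of Jund and 173 bp from that of Batf, and with windows of 1 kb to either side 0 AP-1 genes had H3K27ac only and 1 had neither. Fosl1 reached 10.8-fold H3K4me3. Barrier lipid genes had both marks at 19 of 24, with Smpd1 (acid sphingomyelinase) at 14.5-fold H3K4me3. Elovl4, the elongase of very long chain fatty acids, had H3K4me3 only, and Alox12b, Degs2, Sdr9c7 and Cyp4f39 had neither.

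Most spinous and granular keratinocyte genes had no peak of either mark in the window. Of 34, 21 had neither mark (61.8%, against 37.5% of protein-coding genes), 8 had both, 2 had H3K4me3 only and 3 had H3K27ac only. Of those with both, the tallest H3K4me3 peaks were at Asprv1, the protease that processes profilaggrin (10.8-fold), Dmkn (7.02-fold), Calm4 (6.46-fold) and Dsg1b (6.14-fold). H3K27ac alone was found at Dsc1, desmocollin 1 (4.84-fold), Klk5, a protease of desquamation (4.62-fold), and Sprr1a (3.59-fold), with the nearest H3K4me3 peak 27731 bp, 18951 bp and 56358 bp away. H3K4me3 alone was found at Dsg1a, desmoglein 1 alpha (6.1-fold), and Tgm5, a transglutaminase (7.02-fold). Dsg1a and Dsg1b are close paralogs, and how the alignment divided reads between them was not tested. Some of the genes with neither had peaks not far off: for Krt10 an H3K4me3 peak lay 751 bp and an H3K27ac peak 858 bp from the window, and for Lor 1066 bp and 1687 bp. For Ivl, involucrin, they lay 65987 bp and 4806 bp away. The median CpG ratio of the list was 0.157, the basal list's 0.467. With windows of 2.5 kb to either side, 13 of the 34 had both marks and 16 neither. With the 20000 most significant peaks 3 had both and 24 neither, and the share of H3K4me3 genes with H3K27ac was 42.9% in place of 80%. The keratin-associated proteins of the hair shaft had neither mark at 55 of 56 genes, with H3K4me3 only at Krtap17-1 (3.61-fold over 200 bp), and defensins had neither at 70 of 71, Defb1 having both.

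Genes of basic cell functions mostly carried both marks. All 31 proteasome genes had both, with 13.1-fold H3K4me3 at Psmc4 and 13.5-fold and 13.2-fold H3K27ac at Psma1 and Psmc6. DNA replication genes had both at 33 of 37 and H3K4me3 only at Mcm2, Mcm3, Rfc2 and Gins3. The H3K27ac peak of Lig1, a DNA ligase, was the tallest of that list (17.6-fold), and it is shared with the head-to-head neighbour Zswim9. Cytosolic ribosomal protein genes had both marks at 77 of 84. The 4 with neither were Rpl3l, Rpl10l, Rpl39l and Rpl32l, all paralogs of the standard genes, and Rps4l, Rpl38 and Rpl23a had H3K4me3 only. Respiratory complex subunits had both marks at 76 of 84. Cox6a2, Cox8b, Cox8c, Cox7b2, Cox4i2 and Ndufa11b had neither, and Cox7a1 and Ndufb4c had H3K4me3 only. Cox6a2, Cox7a1 and Cox8b are isoforms used in striated muscle. Reference genes had both at 12 of 14, and H3K4me3 only at the others, among them Gusb (13.9-fold). Genes with a Zfp symbol had both at 302 of 387 and H3K4me3 only at 46, and their median H3K4me3 fold enrichment was 10.1. Zfp619 had the tallest H3K27ac peak of that list, at 19-fold.

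**Figure D5:**
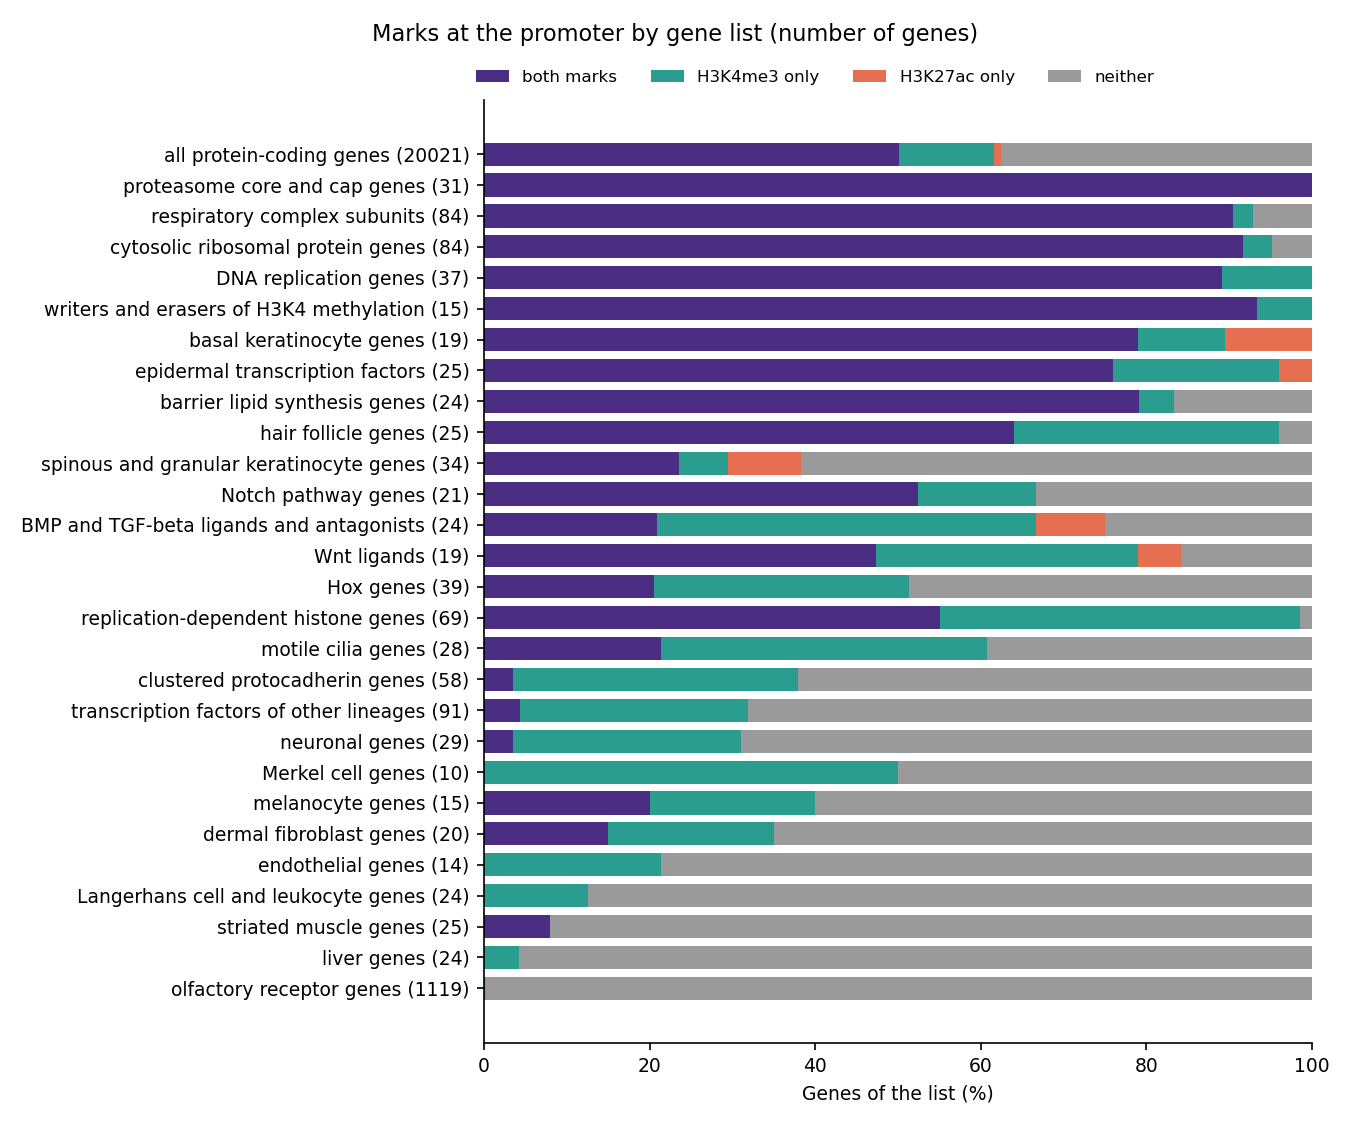
Share of genes (x axis, percent) with both marks, H3K4me3 only, H3K27ac only and neither at the promoter, as stacked bars for all 20021 protein-coding genes and 27 gene lists, with the number of genes of each list. Both marks are found at 31 of 31 proteasome genes and 15 of 19 basal keratinocyte genes but at 4 of 91 transcription factors of other lineages, and neither mark at 1116 of 1119 olfactory receptor genes.

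At transcription factors of other lineages, most H3K4me3 stood without H3K27ac. Of 91 transcription factors of other lineages, 29 had H3K4me3, and only 4 of the 29 also had H3K27ac (13.8%, 3.89 to 31.7, against 81.4% of protein-coding genes with H3K4me3). The 4 were Irx3, Irx5, Meis1 and Tbx3. H3K4me3 alone was found, for example, at Foxf1, a factor of mesenchyme (9.35-fold over 962 bp, a peak shared with Fendrr), and Pax2, a kidney and eye factor (7.67-fold over 420 bp). Of the 25 peaks 0 touched an H3K27ac peak, against 12.1% of all H3K4me3-only peaks. Touching favours wide peaks by construction, so nothing particular to the list is read from this 0. The H3K4me3 peaks of the list had a median width of 660 bp, a width at which 57.3% of all H3K4me3 genes had H3K27ac (569 bp to 848 bp). The list was not compared with genes of like −log10 q-value, by which that share ran from 25.7% to 97.7%. With 2.5 kb to either side, 33 genes of the list had H3K4me3 only and 4 had both. With the 20000 most significant peaks 12 had H3K4me3 only and 4 both. The median CpG ratio of the list was 0.574.

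In several other lists, genes with H3K4me3 only outnumbered those with both marks, and the differences between lists were not tested. Neuronal genes had both marks at 1 of 29 (Dlg4) and H3K4me3 only at 8, among them Cplx1 (7.67-fold), the glutamate receptor subunit Grin1 (7.39-fold), whose H3K27ac peak lay 157 bp from the window, the vesicle protein Syt1 (7.22-fold) and the channel Cacna1a (5.42-fold). Merkel cell genes had H3K4me3 only at 5 of 10, with Piezo2, the mechanosensitive channel, at 10-fold and Atoh1 at 8.1-fold, and both marks at 0. Clustered protocadherins had H3K4me3 only at 20 of 58 and both at Pcdhgc3 and Pcdhgc4. The tallest H3K4me3-only peaks there were at Pcdhgb6 (13.6-fold), Pcdhb19 (12.7-fold), Pcdhga7 (12-fold) and Pcdhga5 (10.8-fold). Hox genes had both marks at 8 of 39, including Hoxa4, Hoxd3, Hoxc8 and Hoxc4, H3K4me3 only at 12, including Hoxd11, Hoxc10, Hoxd1 and Hoxb9, and neither at 19. The Hox count depended on the setting, with both marks at 14 genes for windows of 1 kb to either side, 18 for 2.5 kb, where H3K4me3 only was at 12, and 3 for the 20000 most significant peaks. Motile cilia genes had H3K4me3 only at 11 of 28, including the master regulator Foxj1 (13.7-fold), the radial spoke gene Rsph1 (12.2-fold) and Tekt1 (11-fold), and both at 6, including Rsph9 (13.3-fold), Dnaic1, Dnah6 and Ccdc40. Dnaic1 and Ccdc40 share their peaks with the neighbours Fam219a and Tbc1d16. With the 20000 most significant peaks, both marks were at 3 motile cilia genes, and H3K4me3 only was at 2 Merkel cell genes, 4 neuronal genes and 11 protocadherin genes.

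Signalling lists were mixed. Notch pathway genes had both marks at 11 of 21, including the DNA-binding effector Rbpj (7.88-fold H3K27ac), its coactivator Maml1 and the target Hey2. H3K4me3 alone was at Hey1, the ligand Dll4 and Lfng, a glycosyltransferase of the receptor whose peak was 2911 bp wide and touched H3K27ac. Dll3, Hes5, Hes7 and Heyl were among the 7 with neither. For Heyl, H3K4me3 lay 100 bp and H3K27ac 181 bp from the window. BMP and TGF-beta ligands and antagonists had both at 5 of 24, including Bmp1, Tgfb3, Fst and Sostdc1, and H3K4me3 only at 11, including the antagonist Chrd (9.32-fold), Bmp8a (8.8-fold) and Gdf6 (8.41-fold). Bmp2 and Bmp4 had H3K27ac only, with H3K4me3 68 bp and 53 bp outside the window, and Bmp3, Bmp5, Gdf10 and Grem1 were among the 6 with neither. With windows of 1 kb to either side, 11 of the 24 had both marks, and with the 20000 most significant peaks 4 had. Wnt ligands had both at 9 of 19, including Wnt2b (8.9-fold), Wnt9b (8.75-fold) and Wnt3a (6.61-fold), H3K4me3 only at 6, including Wnt5b (8.18-fold), Wnt2, Wnt10b and Wnt11, and H3K27ac only at Wnt8a, through a peak with its summit at -1089 bp. Wnt1, Wnt8b and Wnt9a had neither. With the 20000 most significant peaks, 7 Wnt genes had both and 8 had H3K4me3 only, so the order turned there too.

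Lists of the other cell types of skin had few genes with both marks. Melanocyte genes had both at 3 of 15 (Mitf, Rab27a and Pmel, the last through peaks shared with Cdk2), H3K4me3 only at Kit, Ednrb and Mlana, and neither at 9. Langerhans cell and leukocyte genes had both at 0 of 24 and H3K4me3 only at 3, with 12.4-fold at H2-Ab1, an MHC class II chain, 6.77-fold at Irf8 and 6.2-fold at Coro1a. Dermal fibroblast genes had both at 3 of 20 (Col5a1, Postn and Dcn) and H3K4me3 only at Fbn1 (10.1-fold), Col1a2 (9.86-fold), Pdgfra (6.75-fold) and Crabp1 (6.62-fold). Endothelial genes had both at 0 of 14 and H3K4me3 only at Egfl7 (13-fold), Kdr, a VEGF receptor (9.27-fold), and Sox18 (7.92-fold). Striated muscle genes had neither mark at 23 of 25, with both at Tnni2 and at Mylpf, which shares its peaks with Tbc1d10b. Liver genes had neither at 23 of 24, with H3K4me3 only at Apoa2 (3.67-fold over 208 bp). The small counts depended on the window. With 2.5 kb to either side, both marks were at 2 leukocyte genes, 5 melanocyte genes and 2 liver genes, and with 1 kb to either side 1 liver gene had both and 0 had H3K4me3 only. Endothelial genes with H3K4me3 only numbered 5 with 1 kb to either side and 6 with 2.5 kb. Olfactory receptors had neither at 1116 of 1119, H3K4me3 only at Olfr66 and H3K27ac only at Olfr433 and Olfr1411, and vomeronasal receptors had neither at 347 of 349, H3K4me3 only at Vmn2r29 and Vmn2r129. In total epidermis, a mark carried by few cells and a weak mark in many cells cannot be told apart.

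Imprinted genes, of which 1 parental copy is silent, had both marks at 12 of 28, H3K4me3 only at 10 and neither at 6. With the 20000 most significant peaks the order of the first 2 classes turned, to 7 with both and 15 with H3K4me3 only. H3K4me3 only was found at Peg12 (8.66-fold), Grb10 (8.24-fold), Snrpn (8.09-fold) and Ndn (7.67-fold) among others, and Zim1 (11.9-fold), Mcts2 (11.5-fold) and Airn (8.9-fold) had both. Of those with neither, the H3K4me3 peaks of H19 and Cdkn1c lay 8 bp and 85 bp outside the window, while that of Magel2 lay 27416 bp away. Replication-dependent histone genes had both at 38 of 69 and H3K4me3 only at 30, with H4c3 (10.3-fold H3K4me3), H4f16 (8.44-fold H3K27ac) and H3c6 among the former and H2af-ps2 (19-fold over 477 bp), by its symbol a pseudogene that the list's symbol pattern took in, H2ac1, H2bc1 and H2ac4 among the latter, and H1f6 had neither. Both marks were at 52 of these histone genes with windows of 2.5 kb to either side and at 29, against 39 with H3K4me3 only, with the 20000 most significant peaks. H2ac1 and H2bc1 share 1 peak, and histone genes have near-identical copies, between which the authors' alignment could have divided reads. For the noncoding lists the background is the 4942 noncoding genes, of which 27.1% had H3K4me3, 20.5% had H3K27ac, 18.9% had both, 8.15% had H3K4me3 only, 1.58% had H3K27ac only and 71.3% had neither. MicroRNA genes had both at 102 of 1100, H3K4me3 only at 56 and H3K27ac only at 14, and small nucleolar RNA genes had both at 38 of 111 and H3K4me3 only at 16. Of those with H3K4me3, 64.6% and 70.4% had H3K27ac, against 69.9% of noncoding genes. With windows of 2.5 kb to either side, 195 microRNA genes and 64 small nucleolar RNA genes had both. The annotated start of such a short RNA need not be the start of the transcript it is cut from. These windows may therefore miss the promoter, which was not tested. Both lists are themselves part of the noncoding background. Some share a peak with a neighbouring or host gene, as Mir423 does with Nsrp1 and Snord15a with Rps3. The tallest H3K27ac-only peaks among microRNA genes were at Mir5110 (7.91-fold) and Mir190a (6.06-fold).

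The enzymes that write and erase these marks mostly carried both themselves. Of 15 writers and erasers of H3K4 methylation, 14 had both marks. The H3K4me3 fold enrichment was 4.81 at Kmt2a, 5.65 at Kmt2b, 4.44 at Kmt2c, 4.57 at Kmt2d and 6.69 at Setd1a, and their H3K27ac fold enrichment was 6.08, 5.99, 5.91, 4.39 and 5.92. In the same order, their H3K4me3 summits lay upstream of the TSS, at -487 bp, -468 bp, -480 bp, -934 bp and -385 bp. Subunits of their complexes, some of them particular to 1 type of complex, had H3K4me3 values of 7.34 at Ash2l, 7.89 at Wdr5, 7.83 at Rbbp5, 8.68 at Dpy30, 10.6 at Cxxc1 and 7.78 at Men1, and their H3K27ac values were 6.13, 7.56, 11.2, 8.86, 8.56 and 6.51. The demethylases Kdm1a, Kdm5a and Kdm5b had 3.64, 5.14 and 3.48 for H3K4me3 and 7.58, 6.72 and 5.18 for H3K27ac. Setd1b was the other gene of the 15, with H3K4me3 alone (2.46-fold over 903 bp), its nearest H3K27ac lying 2489 bp upstream. Of 10 writers and erasers at lysine 27, 9 had both. The acetyltransferases Ep300 and Crebbp had 4.47 and 7.32 for H3K4me3 and 6.95 and 8.74 for H3K27ac. The deacetylases Hdac1, Hdac2 and Hdac3 had 8.15, 8 and 7.43 for H3K4me3 and 7.91, 8.23 and 6.3 for H3K27ac. The Polycomb genes Ezh1, Ezh2, Eed and Suz12 had 9.41, 6.04, 6.04 and 5.22 for H3K4me3 and 8.47, 8.22, 5.97 and 6.62 for H3K27ac. The demethylase Kdm6b had neither, the nearest H3K4me3 peak lying 6 bp from the window. Among all these enzymes and subunits, Kmt2b, Kmt2c, Rbbp5, Kdm5a, Ezh2 and Hdac3 share a peak with a neighbouring gene.

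Peaks of the factors that the series studied were most frequent at genes with both marks. The deposited MOF regions outnumber the MOF peaks that the study counts, so the shares hold for the deposited regions. MOF, which was mapped by ChIPseq in the same tissue, had a peak at the promoter of 49.8% (48.8 to 50.7) of genes with both marks, 15.3% (14 to 16.7) with H3K4me3 only, 10.5% (7.11 to 14.9) with H3K27ac only and 2.09% (1.83 to 2.37) with neither. Over all autosomal genes the share was 24.6%. Among genes with H3K4me3, H3K27ac was present at 93% of those with MOF and 70.7% of those without. MOF was at 22.9% (18.5 to 27.9) of the H3K4me3-only genes whose peak touched H3K27ac and at 14.3% (12.9 to 15.7) of those whose peak stood apart. By construction the touching peaks are the wider ones (median 1470 bp against 714 bp), and the MOF shares were not compared at equal width. Of the 313 genes with an Rfx2 peak at the promoter, 306 had both marks, 7 had H3K4me3 only and 0 had H3K27ac only or neither. Among genes with H3K4me3, H3K27ac was present at 97.8% of those with Rfx2 and 79.8% of those without. For 0 of 266 and 0 of 11031, the upper Clopper-Pearson bounds are 1.38% and 0.0334%, and the limits set by 3 counts are 1.13% and 0.0272%. Rfx2 was at 1.25% of all autosomal genes. This lies below the bound of 1.38%, so nothing is read from the 0 of 266.

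Promoters shared by a pair of genes were mostly of the double-mark class. A gene had a TSS of another gene on the opposite strand within the 1000 bp before its own at 23.2% (22.4 to 24) of genes with both marks, 7.89% (6.9 to 8.98) with H3K4me3 only, 1.88% (0.613 to 4.33) with H3K27ac only and 2.45% (2.17 to 2.75) with neither. The share over all autosomal genes was 12.1%. The start of the partner lies inside the window of the gene, so peaks at that start count for the gene as well. The rule therefore favours marks at such genes by construction. Of H3K4me3 genes with such a partner 92.3% had H3K27ac, and of those without 77.2%. Several genes can rest on 1 peak: the 10968 genes with both marks rested on 10230 H3K4me3 peaks, 1682 of which lay at more than 1 of these genes, and the 2698 H3K4me3-only genes on 2729 peaks, 167 of them shared. Of genes with both marks 21.7% had more than 1 TSS, which gives more windows in which a peak can lie, against 19.7% with H3K4me3 only, 16.9% with H3K27ac only and 7.46% with neither.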

How the data were processed

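Cut&Run of 2 histone marks and of Rfx2 and ChIPseq of MOF in total epidermis were analysed from peak lists. Per the labels and methods, the authors aligned reads to mm10 with Bowtie2 and called peaks per library with MACS2 (whole fragments for Cut&Run; tool versions are stated by the study; control library, q-value cutoff and excluded regions not given in the sources used here). The deposited values are the fold enrichment at the summit, a ratio to local background, and the −log10 q-value, whose lowest values were 1.35 for H3K4me3 and 1.32 for H3K27ac. The deposited MOF regions carry a score of unstated scale and were used, like the Rfx2 peaks, for presence only. The study states the depth of each library, but the lists hold no counts, so no interval could be drawn from depth. The MOF regions outnumber the peaks that the study counts.

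Genes, TSSs and sequences came from RefSeq (GRCm38.p6, the sequence of mm10; NM and NR transcripts, autosomes only). Where several peaks reached a window, the one with the highest fold enrichment stood for the gene. Overlaps, Clopper-Pearson intervals and order-statistic intervals of medians were computed with Python 3.11.15, pandas 2.3.3 and scipy 1.17.1. The bounds of ratios combine the bounds of both medians. The calls were tested with simulated peaks on the real promoter windows: 0 of 49926 gene calls differed from bedtools 2.31.1, and 941 of 1000 median intervals held the true median.

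The members, the 37 gene lists and the markers were chosen with earlier results of these data known, and some list symbol patterns were refined once the files were read. 6 list genes were not found on an autosome. Named by rule were the 10 protein-coding genes with the tallest and the 5 with the widest peaks of each marked class (for both marks, the 10 with the lowest sum of ranks), leaving out clone and model names, and from each list the genes outside its most common class (all where 8 or fewer, otherwise the 4 tallest of each class) and the 3 tallest inside it. The writers and erasers are given in full. Some genes that the rule selects are not reported here. Alternatives changed the window, the overlap rule, the transcripts, the peaks kept and the measure of height.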

Additional observations from a re-analysis of the deposited data

How the results depend on the processing

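Of 47 alternative values, 20 moved by less than the counting error, 26 moved further and 1 reversed. No paired analysis was possible because each mark had 1 list, and for the same reason no replicate could be left out. When the peak centre had to lie in the window, the H3K4me3-only share was 9.1%, the H3K27ac-only share 9.79%, the share of H3K4me3 genes with H3K27ac 65.1%, the H3K4me3 height ratio (both marks over the single mark) 1.16, the H3K4me3 width ratio 2.12 and the H3K27ac height ratio 1.06. With the stronger 50% of each list these were 10.3%, 1.82%, 77.7%, 0.899 (reversed from 1.11), 1.25 and 1.3. With the 20000 most significant peaks of each list they were 12.5%, 0.817%, 76.2%, 1, 1.47 and 1.33. The rule on the peak centre also gave H3K4me3 at 63.4% of H3K27ac genes, against 97.6% by overlap, and both marks at 47.3% of marked genes, against 78.7%. Windows of 2.5 kb to either side gave an H3K27ac-only share of 1.31%, 81.5% of H3K4me3 genes with H3K27ac and a width ratio of 2.04, and windows of 1 kb to either side a width ratio of 1.93. With NM transcripts only, the H3K4me3-only share was 11.5% and 81.4% of H3K4me3 genes had H3K27ac, and with genes of a single TSS the H3K4me3-only share was 10.2%. By −log10 q-value in place of fold enrichment the height ratios were 2.79 for H3K4me3 and 2.73 for H3K27ac. The cause of these shifts was not tested. Settings for the gene lists were chosen after seeing the data, and 11 of 108 list values moved by more than their counting error under them. The intervals of short lists are so wide that the other values show nothing about stability.

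The lists limit what can be said. A gene without a peak had no signal past the authors' threshold, which is not an absence of the mark. Differences between the lists in depth or antibody and differences between the marks cannot be told apart.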
